A study of Mus musculus with 2 samples.

Results

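Glycosyltransferases that build O-glycans, galactosylated chains and sialic acid caps were compared between Fut8-/- and Fut8+/+ mouse embryonic fibroblasts (MEFs). The set was taken by name: a probe set belonged to it if the platform annotation gave it 1 gene symbol and that symbol began with St3gal, St6gal, St6galnac, St8sia, Galnt, B3galt, B3gnt, B4galt or Gcnt. This gave 135 probe sets for 63 of the 18193 genes on the array. The rule itself uses names only, and it was set with earlier results of these data known. Of the 65 protein-coding genes with such names in assembly GRCm38.p6, Galnt17 and Gcnt4 had no probe set under their own symbol and were not analysed here.

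The genotypes compared were MEFs homozygous for the disrupted Fut8 gene (Fut8-/-) and MEFs with both normal copies (Fut8+/+), described by the labels as mouse cell lines grown in serum-containing medium. No further allele, agent or age is named in the labels. Biotin-labelled RNA of each genotype was hybridised to 1 Affymetrix array, although the design text speaks of 3 cultures per genotype. Whether an array holds RNA of 1 culture or a pool is not known here. No difference below therefore has a replicate check, no test of genotype was possible, and the single array per genotype limits the precision of every value.

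Mucin-type O-glycans start when a polypeptide GalNAc-transferase links N-acetylgalactosamine (GalNAc) to serine or threonine. Galactose and branching N-acetylglucosamine (GlcNAc) then form the core, repeats of galactose and GlcNAc lengthen it, and sialyltransferases cap the ends. Related galactosyl- and sialyltransferases finish N-glycans, build glycolipids and make the linker that joins glycosaminoglycans to their proteins. Fut8 itself adds core fucose to N-glycans and takes part in none of these steps.

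Signals are printed as deposited, on the linear scale of the arrays. Ratios are log2 of Fut8-/- over Fut8+/+ after centring on the median of probe sets above the dim range, which was -0.22 on the log2 scale. Scaled signals under 12.3, the 40th percentile of both arrays, were set to that floor, and a fold against the floor is given as at least that size. A gene was taken as measured if its brighter array reached a scaled signal of 39.1, the 60th percentile, at its brightest probe set. Measured genes were counted as higher or lower from a 2-fold ratio on.

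At the brightest Fut8 probe set the signal was 11.7 in Fut8-/- cells and 190.9 in Fut8+/+ cells. It is not known here whether that probe set reads the disrupted stretch of Fut8, and if it lies outside it the signal checks nothing. RNA integrity was read from the signal at the 3-prime end over that at the 5-prime end, which was 0.732 in Fut8-/- and 0.812 in Fut8+/+ cells for Gapdh, and 1.25 in Fut8-/- and 1.20 in Fut8+/+ cells for beta-actin. For comparison with the marker counts, 6.08% of all measured genes were higher and 8.46% lower in Fut8-/- cells. Of 14 fibroblast markers 11 were measured, 5 of them lower and 1 higher in Fut8-/- cells. The 14 summed to 35444 in Fut8-/- and 43512 in Fut8+/+ cells. This sum and the marker sums below use deposited signals, before Fut8-/- signals are multiplied by 1.16 for the ratios. The brightest markers weigh most in such sums. Thy1, Dcn and Lum, which also mark fibroblasts, were not measured on either array. The 6 leukocyte markers summed to 135.8 in Fut8-/- and 218.5 in Fut8+/+ cells, with Ptprc, Adgre1 and Itgam at the floor on both arrays. The 6 endothelial markers summed to 215.8 in Fut8-/- and 311.9 in Fut8+/+ cells, with Pecam1 at the floor on both. Measured leukocyte markers were Cd14 (62.4 in Fut8-/- and 122.4 in Fut8+/+ cells) and Csf1r (34.0 in Fut8-/- and 46.7 in Fut8+/+). Measured endothelial markers were Egfl7 (113 in Fut8-/- and 192.5 in Fut8+/+ cells) and Eng (62.1 in Fut8-/- and 52.0 in Fut8+/+). None of the 2 measured leukocyte and 2 measured endothelial markers passed 2-fold. The 8 epithelial markers summed to 307.9 in Fut8-/- and 116.4 in Fut8+/+ cells, and of 3 measured Krt19 and Dsp were higher and Epcam lower. The 5 neural markers summed to 122.2 in Fut8-/- and 766.5 in Fut8+/+ cells, with all 3 measured lower. The 6 skeletal muscle markers summed to 182.7 in Fut8-/- and 120.8 in Fut8+/+ cells, and of 3 measured Pax3 and Ckm were higher and Des lower. The part of these markers in the results below was not tested. In bulk RNA of this kind, fewer cells of a type and less RNA per cell cannot be told apart.

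Most of the transferase genes that could be measured had similar signals in both cultures. Of 25 measured members, 22 lay within 2-fold, 1 was higher in Fut8-/- cells and 2 were lower. The higher gene was B3galt4, a ganglioside galactosyltransferase. The lower genes were Gcnt1, which makes the core 2 branch of O-glycans, and B3gnt9, a member of the beta1,3-N-acetylglucosaminyltransferase family. Among all 10164 measured genes, 6.08% were higher and 8.46% lower by the same rule. These compare with 4% higher and 8% lower among the members, so the members' shares were near the background. Without centring the background moved to 4.08% higher and 11.8% lower, and higher genes made up 25.7% of all genes counted in place of 41.8%, while the same 3 members were counted. The members' median log2 ratio was -0.14, beside 0.00 for all measured genes. Ratios under 0.5 in size on the log2 scale were found for 15 of the 25 members and for 62.3% of all measured genes.

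**Figure D1:**
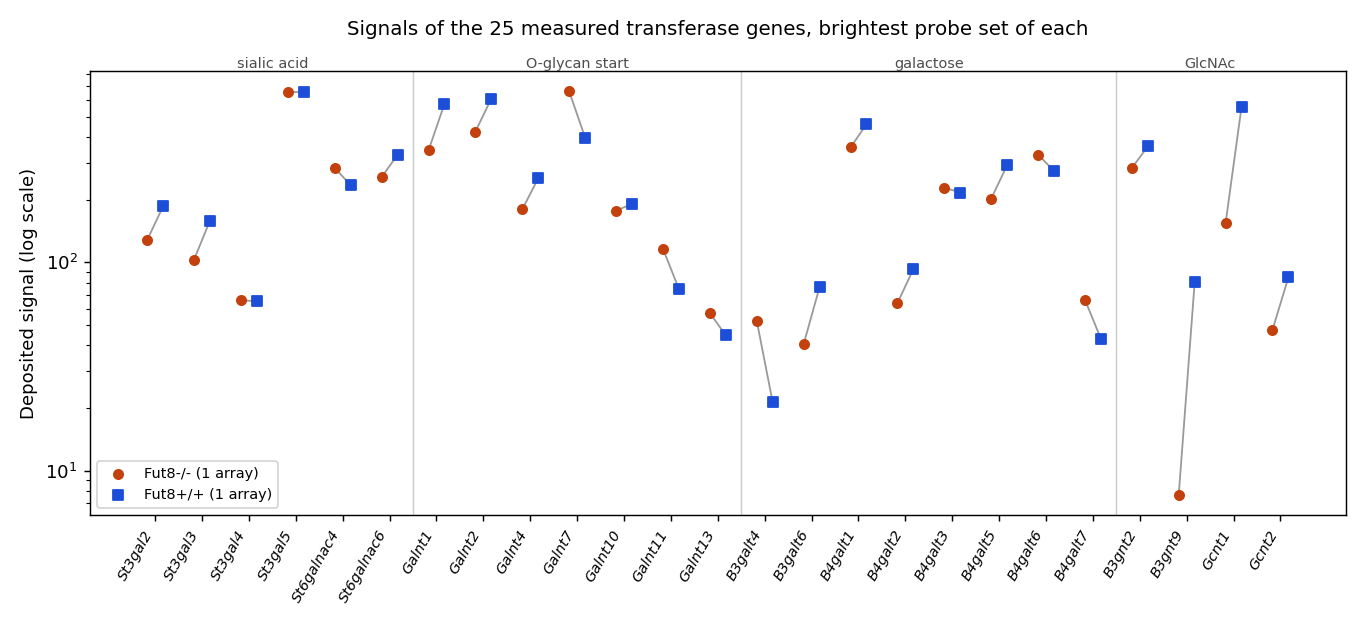
Deposited signal (log scale) of the 25 measured transferase genes on the Fut8-/- array (circles, left) and the Fut8+/+ array (squares, right), 1 array each, at each gene's brightest probe set. The longest lines belong to B3gnt9 (7.66 in Fut8-/- and 80.1 in Fut8+/+), Gcnt1 (154.4 in Fut8-/- and 557.8 in Fut8+/+) and B3galt4 (52.5 in Fut8-/- and 21.4 in Fut8+/+). Fut8-/- signals are drawn before the scaling that enters the ratios.

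**Figure D2:**
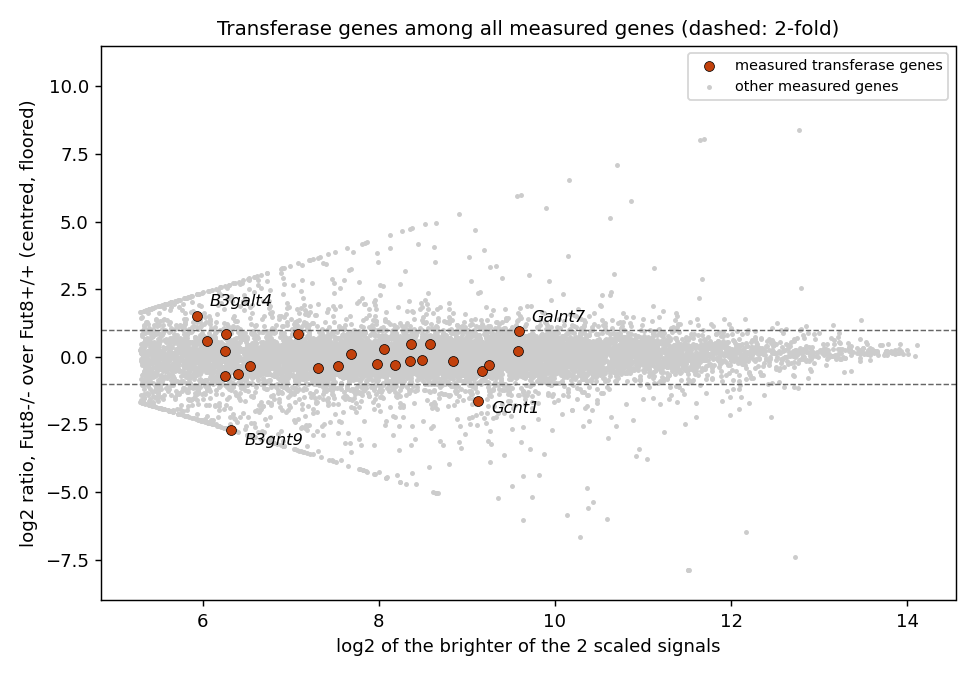
Log2 ratio of Fut8-/- over Fut8+/+ (centred and floored) against log2 of the brighter scaled signal, for the 25 measured transferase genes (large points) and the other measured genes (grey). B3galt4 lies above the upper dashed 2-fold line, Gcnt1 and B3gnt9 lie below the lower one, and Galnt7 lies just under the upper one. The slanted edges on the left are ratios with 1 array at the floor.

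Spread was wider among dim genes. Among the 1705 measured genes whose brighter scaled signal was under 100, 12.0% were counted as higher and 17.1% as lower. Of the 8 members in that range, B3galt4 was higher and B3gnt9 lower. Of the 2920 genes from 100 to under 300, 5.68% were higher and 9.52% lower, and of the 7 members there 0 were either. Among the 5539 genes at 300 or more the shares were 4.46% higher and 5.24% lower, and Gcnt1 was the 1 lower gene of 10 members. Probe sets of a single gene give a technical yardstick. For 15 members several probe sets exceeded the floor in both cultures, and the log2 ratios of a gene's probe sets had an SD of 0.34 (37 probe sets), beside 0.40 over 5389 genes of the whole array. The sign was shared by all of them in 10 of the 15 genes and differed for B3gnt2, B4galt6, Galnt13, St3gal2 and St6galnac4.

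**Figure D3:**
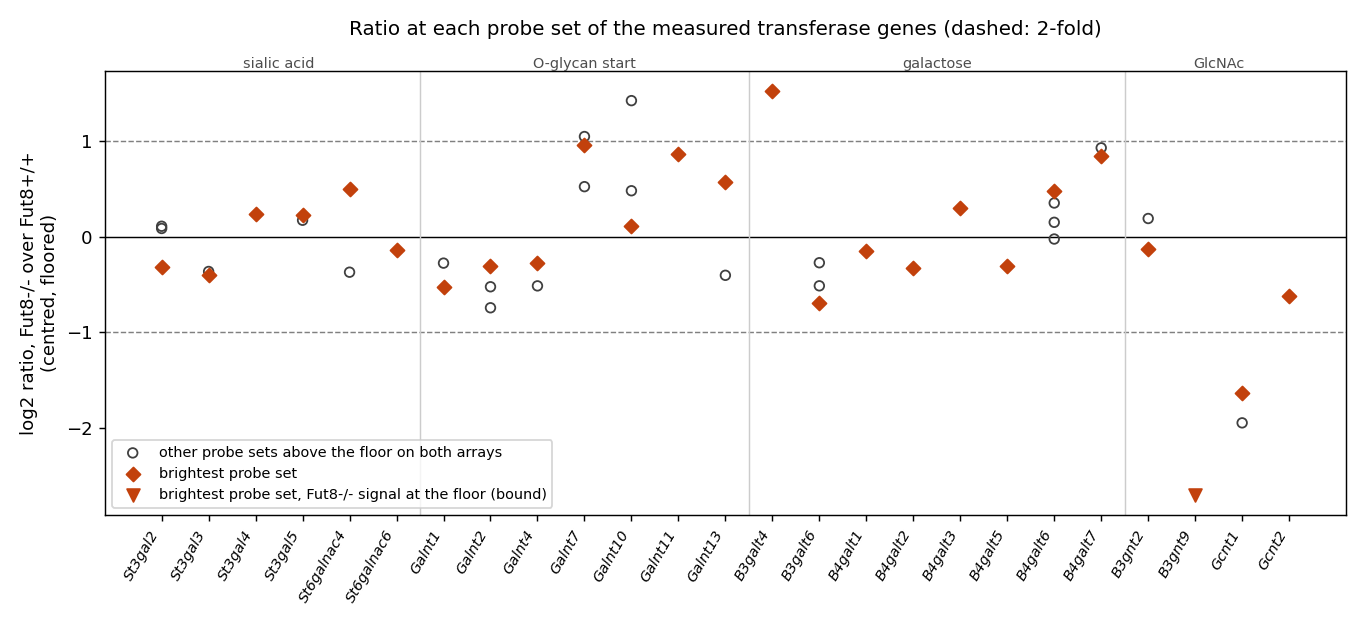
Log2 ratio of Fut8-/- over Fut8+/+ at every probe set of the 25 measured transferase genes with both signals above the floor, with the brightest probe set of each gene as a diamond. Both Gcnt1 probe sets lie below the 2-fold line, at -1.63 and -1.94. The triangle is B3gnt9, whose Fut8-/- signal was at the floor, so that its ratio of -2.70 is a bound.

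The polypeptide GalNAc-transferases, which start O-glycans, had 7 measured genes among 18, all within 2-fold (median log2 ratio 0.11). Most measured genes of the array also lay within 2-fold, with 6.08% higher and 8.46% lower. The broadly acting enzymes Galnt1 and Galnt2 lay on the lower side. Galnt1 had a signal of 344.1 in Fut8-/- cells and 576.4 in Fut8+/+ cells, a log2 ratio of -0.53. Galnt2 had 423.7 in Fut8-/- and 610.7 in Fut8+/+ cells, a log2 ratio of -0.31, and its other probe sets gave -0.52 and -0.74. The follow-up enzymes Galnt4, Galnt7 and Galnt10, which act on peptides that already carry GalNAc, did not share a direction. Galnt7 came closest to the limit, with 661.0 in Fut8-/- and 396.9 in Fut8+/+ cells, a 1.94-fold ratio. Its second probe set was just past the limit at 1.05 on the log2 scale and its dimmest was at 0.52. Galnt4 had a signal of 179.5 in Fut8-/- cells and 253.5 in Fut8+/+ cells (log2 ratio -0.28). Galnt10 was close at its brightest probe set, with 177.0 in Fut8-/- and 190.6 in Fut8+/+ cells (log2 ratio 0.11). The dimmest of the 3 Galnt10 probe sets departed from this, with 53.2 in Fut8-/- and 23.1 in Fut8+/+ cells, a log2 ratio of 1.42. Galnt11, an enzyme known to modify Notch1 and linkers of the LDL receptor family, had 116.3 in Fut8-/- and 74.6 in Fut8+/+ cells (log2 ratio 0.86). Galnt13, a close relative of Galnt1 best known from neurons, had 57.1 in Fut8-/- and 44.7 in Fut8+/+ cells (0.57), but its other probe set gave -0.40.

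The remaining 11 GalNAc-transferase genes were too dim to be measured, with Fut8-/- signals from 0.668 to 22.7 and Fut8+/+ signals from 0.957 to 31.7 at their brightest probe sets. They were Galnt3, Galnt5, Galnt6, Galnt9, Galnt12, Galnt14, Galnt15, Galnt16, Galnt18, Galntl5 and Galntl6. Galnt16 was the widest apart of these, with 8.76 in Fut8-/- and 27.6 in Fut8+/+ cells. Its fold was at least 2.23, but it was not counted because its brighter signal stayed under the measured limit.

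At the next step of the O-glycan the core 1 genes were within 2-fold after centring and the core 2 branching gene was lower. C1galt1, which adds galactose to make core 1, had 92.6 in Fut8-/- and 124.9 in Fut8+/+ cells (log2 ratio -0.21). C1galt1c1, the chaperone it needs, had 625.4 in Fut8-/- and 1308 in Fut8+/+ cells (-0.85), and without centring it passed 2-fold on the lower side. This gene lies on the X chromosome, whose 324 measured genes had a median log2 ratio of 0.02. The cultures differed in Y-linked signal, with 3 of 4 measured Y genes higher in Fut8-/- cells (median 5.62), so genotype and sex of the culture cannot be told apart here. None of the 63 members lies on X or Y. Gcnt1, which adds the GlcNAc branch that turns core 1 into core 2, had 154.4 in Fut8-/- cells and 557.8 in Fut8+/+ cells, and was 3.11-fold lower in Fut8-/- cells. Its second probe set gave the same direction, with 21.1 in Fut8-/- and 94.7 in Fut8+/+ cells, a log2 ratio of -1.94. The Gcnt1 ratio stayed between -1.85 and -1.61 under the 9 other settings. On its chromosome 19 the median over 374 measured genes was 0.11.

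Gcnt2 makes the branches of poly-N-acetyllactosamine known as the I antigen, through alternative first exons that give several enzyme forms. Its brightest probe set had 47.5 in Fut8-/- and 84.8 in Fut8+/+ cells, a log2 ratio of -0.62. Of its 7 other probe sets, 3 were above the floor in Fut8+/+ cells only and 4 were at the floor on both arrays. Those 3 had signals of 6.72, 2.28 and 1.68 in Fut8-/- cells, against 20.9, 20.3 and 13.1 in Fut8+/+ cells. With Fut8-/- at the floor these 3 could only read lower, so their direction adds nothing to that of the brightest probe set. The ratios of these 3 are bounds of at least 1.69-fold, 1.64-fold and 1.06-fold, which leave the size of the difference unknown. With the median over all Gcnt2 probe sets the log2 ratio was -0.04. Gcnt2 lies on chromosome 13, where the median of 377 measured genes was 0.56. Measured against its own chromosome its log2 ratio was -1.10, past the 2-fold limit. The branching genes Gcnt3 and Gcnt7 were at the floor on both arrays, with 5.80 and 2.89 in Fut8-/- cells, against 1.26 and 2.31 in Fut8+/+ cells.

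The upstream sequences of Gcnt1 and B3galt4 are shown because these genes differed in opposite directions and had a RefSeq promoter window. Each is the 250 bases before the annotated gene start in GRCm38.p6, 5′ to 3′ on the minus strand, at chr19:17372845-17373094 for Gcnt1 and chr17:33951489-33951738 for B3galt4. Capitals mark exact matches on either strand to the TATA box TATAAA, the CCAAT box CCAAT, the GC box GGGCGG and the E-box CACGTG, and no matches overlapped.
Gcnt1: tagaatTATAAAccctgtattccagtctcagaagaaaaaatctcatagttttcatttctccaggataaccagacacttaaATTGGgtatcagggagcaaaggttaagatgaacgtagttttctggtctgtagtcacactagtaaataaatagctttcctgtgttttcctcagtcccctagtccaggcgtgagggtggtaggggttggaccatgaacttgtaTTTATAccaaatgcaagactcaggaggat
B3galt4: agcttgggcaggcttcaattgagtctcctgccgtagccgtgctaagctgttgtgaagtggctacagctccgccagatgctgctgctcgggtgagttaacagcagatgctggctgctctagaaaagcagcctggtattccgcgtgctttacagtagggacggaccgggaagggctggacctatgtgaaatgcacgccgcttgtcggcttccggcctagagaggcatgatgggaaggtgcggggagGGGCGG
The Gcnt1 window, 40.4% G and C, held TATAAA at 244 to 239 bases before the start. It also held the reverse complement of CCAAT at 170 to 166, and that of TATAAA at 29 to 24. The B3galt4 window, 59.2% G and C, held 1 GC box in the 6 bases before the start. Over all 32851 windows of the same length, with a median of 52.4% G and C, 12.4% held the TATA letters, 33.8% the CCAAT letters, 32.7% the GC box and 6.02% the E-box. Gcnt1 has 3 such windows in RefSeq and the array does not tell its starts apart.

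Chain extension alternates galactose from the B4galt enzymes with GlcNAc from the B3gnt enzymes. The lactosamine galactosyltransferases B4galt1, B4galt2 and B4galt3 were all within 2-fold at their brightest probe sets. B4galt1, the best known of them, had 355.8 in Fut8-/- and 459.4 in Fut8+/+ cells (log2 ratio -0.15). B4galt2 had 63.7 in Fut8-/- and 92.8 in Fut8+/+ cells (-0.32), and B4galt3 had 228.5 in Fut8-/- and 216.3 in Fut8+/+ cells (0.30). The dimmer B4galt2 probe set was at least 2.11-fold higher in Fut8-/- cells, with 22.3 in Fut8-/- and 4.73 in Fut8+/+ cells. With the median over probe sets the B4galt2 log2 ratio was 0.37. B4galt4 was at the floor on both arrays. B3gnt2, the main enzyme of poly-N-acetyllactosamine, was likewise close, with 283.6 in Fut8-/- and 359.7 in Fut8+/+ cells (-0.12).

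Of the 9 genes of the B3gnt family only 2 were measured, B3gnt2 and B3gnt9. B3gnt9 was lower, and it reached the measured limit in Fut8+/+ cells only. Its single probe set had a signal of 7.66 in Fut8-/- cells and 80.1 in Fut8+/+ cells, at least 6.49-fold lower in Fut8-/- cells. The bound depends on the floor, with a log2 ratio of -1.03 at the 60th percentile and -3.17 at the 20th. The other 7 genes of the family, B3gnt3, B3gnt4, B3gnt5, B3gnt6, B3gnt7, B3gnt8 and B3gntl1, were not measured. B3gntl1 was the most divergent of them, with 26.7 in Fut8-/- and 12.4 in Fut8+/+ cells at one probe set and 27.3 in Fut8-/- and 7.62 in Fut8+/+ cells at the other. The enzymes of core 3 (B3gnt6) and of lacto-series glycolipids (B3gnt5) had at most 10.9 in Fut8-/- and 6.54 in Fut8+/+ cells at their brightest probe sets. The dimmer B3gnt5 probe set had 0.941 in Fut8-/- and 11.8 in Fut8+/+ cells, also at the floor on both arrays.

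In the glycolipid route the gene of the first enzyme had lower signal, the next members were within 2-fold and B3galt4 had higher signal. Ugcg, which makes glucosylceramide, had 122.8 in Fut8-/- and 601.0 in Fut8+/+ cells, 4.21-fold lower. The lactosylceramide synthases B4galt5 and B4galt6 add the next sugar. B4galt5 had 202.1 in Fut8-/- and 291.9 in Fut8+/+ cells (log2 ratio -0.31), and B4galt6 had 328.5 in Fut8-/- and 274.6 in Fut8+/+ cells (0.48). St3gal5, the synthase of ganglioside GM3, had 658.0 in Fut8-/- and 655.3 in Fut8+/+ cells, a log2 ratio of 0.22. B4galnt1, which extends GM3 and was named after its value was seen, was not measured, with 25 in Fut8-/- and 9.51 in Fut8+/+ cells. B3galt4, which acts after it to make ganglioside GM1, had 52.5 in Fut8-/- and 21.4 in Fut8+/+ cells, 2.86-fold higher in Fut8-/- cells. It has 1 probe set, and with the floor at the 60th percentile its log2 ratio was 0.64, under the limit. B3galt1, B3galt2 and B3galt5, the genes of that family that make type 1 chains, were not measured. At their brightest probe sets they had at most 17.1 in Fut8-/- and 7.23 in Fut8+/+ cells. Another B3galt1 probe set had 20.2 in Fut8-/- and 4.43 in Fut8+/+ cells, at least 1.91-fold higher in Fut8-/- cells. Another B3galt5 probe set had 21.1 in Fut8-/- and 1.36 in Fut8+/+ cells, at least 1.99-fold higher. A further B3galt1 probe set lay on the other side, with 1.11 in Fut8-/- and 12.6 in Fut8+/+ cells.

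The linker that attaches glycosaminoglycan chains to proteins takes galactose from B4galt7 and then from B3galt6, and the ratios of these genes lay on opposite sides of 0. B4galt7 had 66.2 in Fut8-/- and 43.0 in Fut8+/+ cells, a log2 ratio of 0.84, and its dimmer probe set gave 0.93. It lies on chromosome 13 as well, and with each chromosome centred on its probe sets, as for Gcnt2, its log2 ratio was 0.36. B3galt6 had 40.4 in Fut8-/- and 76.1 in Fut8+/+ cells, a log2 ratio of -0.69, and its 2 other probe sets gave -0.51 and -0.27. It lies on chromosome 4, where the median of 622 measured genes was -0.22. With each chromosome centred its log2 ratio was -0.50. The other measured members on chromosome 4, B4galt1, B4galt2 and St3gal3, then had log2 ratios of 0.04, -0.13 and -0.21. Neither B4galt7 nor B3galt6 passed 2-fold.

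Sialyltransferases cap these chains, and all 6 that were measured, of 20, lay within 2-fold. So did most measured genes of the array, of which 6.08% were higher and 8.46% lower. Among those that add sialic acid in alpha2,3 linkage, St3gal2 acts on core 1 O-glycans and gangliosides, while St3gal3 and St3gal4 act on lactosamine ends. St3gal2 had 128.0 in Fut8-/- and 186.0 in Fut8+/+ cells (log2 ratio -0.32), with its other probe sets at 0.08 and 0.11. St3gal3 had 103.2 in Fut8-/- and 158.6 in Fut8+/+ cells (-0.40), and St3gal4 had 65.8 in Fut8-/- and 65.1 in Fut8+/+ cells (0.23). St3gal1, the other enzyme of core 1, was not measured, with 9.43 in Fut8-/- and 30.1 in Fut8+/+ cells, a fold of at least 2.44. St3gal6 was not measured either, with 24.6 in Fut8-/- and 26.2 in Fut8+/+ cells.

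Of the enzymes that place sialic acid on GalNAc in alpha2,6 linkage, St6galnac4 and St6galnac6 were measured. St6galnac4, which makes the disialylated form of core 1, had 284.0 in Fut8-/- and 234.5 in Fut8+/+ cells (log2 ratio 0.49), although its second probe set gave -0.37. St6galnac6, which also acts on gangliosides, had 256.4 in Fut8-/- and 328.4 in Fut8+/+ cells (-0.14). St6galnac1, St6galnac2, St6galnac3 and St6galnac5 were not measured. St6galnac1, the sialyl-Tn synthase, had 27.3 in Fut8-/- and 15.7 in Fut8+/+ cells.

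The alpha2,6-sialyltransferases of N-glycans were not measured. St6gal1 had 14.8 in Fut8-/- and 17.6 in Fut8+/+ cells and St6gal2 had 7.71 in Fut8-/- and 3.29 in Fut8+/+ cells. At their brightest probe sets the 6 alpha2,8-sialyltransferases had Fut8-/- signals from 3.53 to 13.0 and Fut8+/+ signals from 7.46 to 24.0. None of these 6 genes was measured. They were the GD3 synthase gene St8sia1, the polysialyltransferase genes St8sia2 and St8sia4, and St8sia3, St8sia5 and St8sia6. St8sia5 was the widest apart, with 6.88 in Fut8-/- and 24.0 in Fut8+/+ cells. Ncam1, the main carrier of polysialic acid, was in contrast measured and was 2.63-fold lower, with 238.1 in Fut8-/- and 727.6 in Fut8+/+ cells. In all, 38 of the 63 members were not measured. At their brightest probe sets 20 of them were at the floor on both arrays, 10 on 1 array and 8 on neither. For the 20, a difference between cultures was not detectable at that probe set. Of these, B3galt5 had another probe set above the floor in Fut8-/- cells only.

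The donor sugars these enzymes use come from other pathways. Beside the counts that follow, 6.08% of all measured genes were higher and 8.46% lower. In sialic acid synthesis and transport 5 of 6 genes were measured and 0 passed 2-fold in either direction (median log2 ratio 0.19). The CMP-sialic acid transporter Slc35a1 had the largest ratio of these at 0.34, with 502.2 in Fut8-/- and 460.9 in Fut8+/+ cells, followed by Nanp (0.20) and Cmas (0.19). Among 4 measured genes of sialic acid removal and recycling 0 passed (median 0.04). The sialate esterase Siae had a log2 ratio of -0.81, the lysosomal sialic acid exporter Slc17a5 0.76 and Ctsa, the protective protein of lysosomal sialidase, 0.13. In the supply of UDP-galactose and UDP-hexosamines 1 of 14 measured genes was lower and 0 were higher (median -0.21). That gene was Gfpt2, an entry enzyme of hexosamine synthesis, with 5.88 in Fut8-/- and 49.5 in Fut8+/+ cells, at least 4.01-fold lower. The UDP-galactose transporter Slc35a2, also on the X chromosome, had 207.2 in Fut8-/- and 468.1 in Fut8+/+ cells (log2 ratio -0.96), and the GalNAc kinase gene Galk2 had a log2 ratio of 0.80.

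The same shares of all measured genes, 6.08% higher and 8.46% lower, stand beside each list count in this paragraph. Of 6 measured genes in a list of related transferases outside the named families, 1 was lower and 1 was higher (median -0.23). The lower was Ugcg, a glucosyltransferase, and the higher was B3galnt1, the globoside synthase. The list also holds the chaperone C1galt1c1. B3galnt1 was at the limit, 2.01-fold, with 986.5 in Fut8-/- and 570.4 in Fut8+/+ cells, and fell short of it without centring, after quantile normalization, after loess and with each chromosome centred. Among 7 measured surface carriers of O-glycans or polysialic acid 1 was higher and 3 were lower (median 0.18). Cd24a, a heavily glycosylated surface protein, was 332-fold higher, with 6025 in Fut8-/- and 21.1 in Fut8+/+ cells. The mucin-like Cd34 was 2.67-fold lower, with 265.0 in Fut8-/- and 824.8 in Fut8+/+ cells. Podoplanin (Pdpn), named after its value was seen, was 2.28-fold lower, and Ncam1 was also lower. With each chromosome centred Pdpn fell short of 2-fold, which left 2 lower carriers. The lower count was also 2 with the median over a gene's probe sets. Of 5 measured galectins, selectins and Siglecs, proteins that bind such glycans, 0 passed 2-fold (median 0.04), with log2 ratios of 0.60 for Lgals8, -0.55 for Siglecg and 0.49 for Lgals3.

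**Figure D4:**
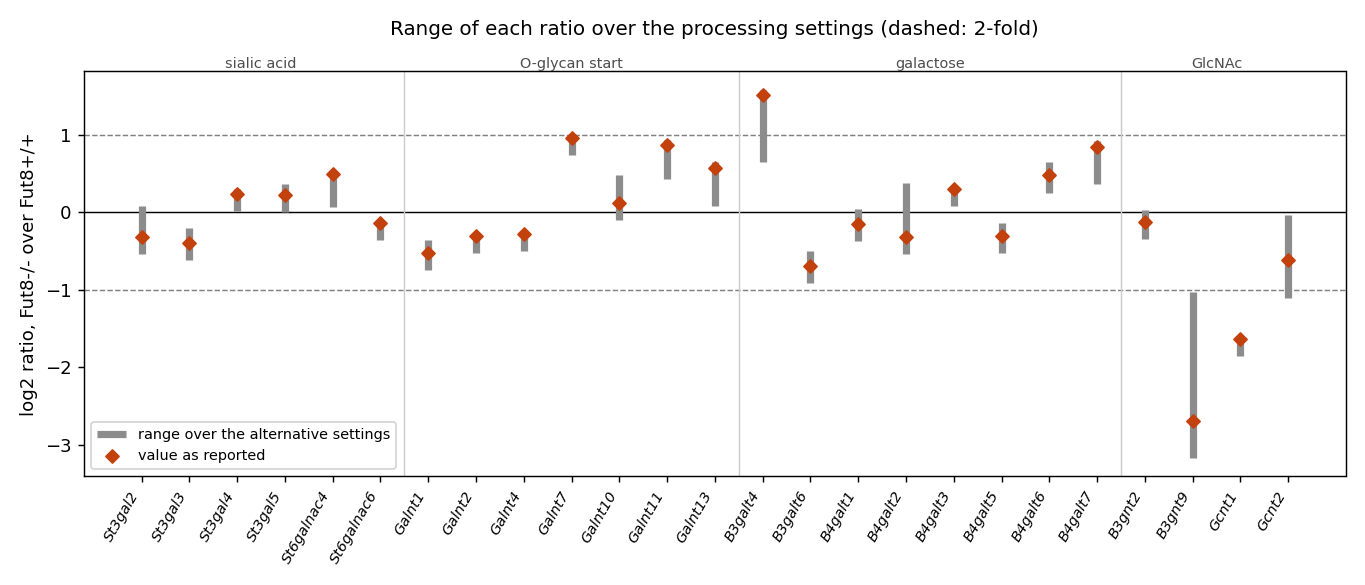
Log2 ratio of Fut8-/- over Fut8+/+ for the 25 measured transferase genes as reported (diamonds) and its range over the alternative settings in which the gene was measured (bars). The Gcnt1 bar, from -1.85 to -1.61, stays below the dashed 2-fold line, while those of B3galt4 (0.64 to 1.58), Galnt7 (0.74 to 1.00) and Gcnt2 (-1.10 to -0.04) reach or cross a line.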

How the data were processed

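The authors' deposited table gave linear signal intensity values for 45101 probe sets on 2 arrays. Per the submitters' processing notes the values came from GCOS, the Affymetrix operating software. Neither a version nor a scaling target is named, and detection calls were not used here. Median signals were 16.9 for Fut8-/- and 20.5 for Fut8+/+, so centring across arrays stays unknown beyond this difference. The arrays were grouped by their genotype label.

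Ratios were centred by a log2 shift of -0.22, which multiplies Fut8-/- signals by 1.16, then floored at the 40th percentile and filtered at the 60th (Python 3.11.15, numpy 2.4.6, pandas 2.3.3). The probe set with the highest mean log2 signal stood for a gene. All 135 member probe sets matched the GRCm38.p6 gene table by identifier, which changed 0 symbols and gave the chromosomes, while promoter windows came from the RefSeq table of that build. No p-value was computed. The steps were tested on simulated data. Alternatives, 9 in all, are given in the closing section.

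Named genes were Fut8, every member, up to 3 measured genes of each of 6 related lists by size of ratio, and Ncam1, C1galt1 and C1galt1c1. Outside this rule, B4galnt1 and Pdpn were named after their values were seen, and single cell type markers were named as well. The members and all lists were chosen with earlier results of these data known.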

Additional observations from a re-analysis of the deposited data

How the results depend on the processing

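The members counted at 2-fold were the same under no centring, quantile normalization, loess, a floor at the 20th percentile and the median over a gene's probe sets, with 1 higher and 2 lower. With the floor at the 60th percentile 0 were higher and 2 lower, since B3galt4 fell under the limit. With no filter on the brighter array 3 were higher and 4 lower of 63, the added genes being B3gntl1, St6galnac1, Galnt16 and St3gal1. With the filter at the 75th percentile 0 were higher and 1 lower of 16, because B3galt4 and B3gnt9 were no longer among the genes considered. With each chromosome centred 2 were higher and 3 lower, Galnt7 and Gcnt2 being added. The members' median log2 ratio of -0.14 was 0 with no filter, where 20 of the 38 added genes sit at the floor on both arrays, and 0.0617 with the median over probe sets. Under the other 7 settings it lay between -0.36 (no centring) and -0.12 (quantile normalization). Of 216 values of single members under the alternatives, 6 had the other sign, none of them for a gene counted as higher or lower. Those genes were B3gnt2, B4galt1, B4galt2, Galnt10 and St3gal2. Of 108 higher or lower counts of the related lists, 10 moved by over 1.5 times. Without centring the lower counts were 2 for UDP-sugar supply, 2 for transferases outside the families and 1 for sialic acid removal. The genes added were Slc35a2, C1galt1c1 and Siae. No paired analysis was possible because each genotype has 1 array. Dim signal limits the set: 38 of 63 members were below the measured limit.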

Other observations

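A further probe set is annotated to both Ccdc24 and B4galt2 and was left out for that reason. It read 16.4 in Fut8-/- and 39.7 in Fut8+/+ cells, while the brightest probe set of B4galt2 alone had 63.7 in Fut8-/- and 92.8 in Fut8+/+ cells. The second probe set of B4galt2 alone lay on the other side, with 22.3 in Fut8-/- and 4.73 in Fut8+/+ cells.

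St3gal6, an alpha2,3-sialyltransferase of lactosamine ends, had a ratio near 0 at its brightest probe set but not at the next ones. Those had 22.6 and 21.0 in Fut8-/- cells, against 7.39 and 0.464 in Fut8+/+ cells, at least 2.13-fold and at least 1.98-fold higher in Fut8-/- cells. All these signals lay under the measured limit.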
